A study of Mus musculus with 38 samples.

Results

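Chemokines and their receptors were described in kidney RNA-Seq from mice given fibroblast growth factor 23 (FGF23), the bone hormone that drives renal phosphate excretion, or its vehicle. The members were the 62 genes, of 55487 counted, whose symbol is that of a CC, CXC, XC or CX3C chemokine, of a receptor for one, or of an atypical receptor. They comprise the Ccl, Ccr, Cxcl, Cxcr, Xcl and Ackr series with Xcr1, Cx3cl1, Cx3cr1, Pf4 and Ppbp. They were chosen by name, with earlier results of these data known. There were 10 groups in 3 experiments.

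The first experiment used male C57BL/6 mice (C57BL/6JRj in the sample labels), 10 weeks old when killed. Glomerulonephritis directed against the glomerular basement membrane (anti-GBM disease) was produced with sheep IgG in Freund's adjuvant, followed days later by nephrotoxic serum (NTS). Healthy controls received PBS in their place. The same mice received the adjuvant and the serum, so the effects of these cannot be told apart. FGF23, the recombinant human protein, was injected intravenously at 1 µg on each of 6 days, and the groups were 4 healthy mice on vehicle, 3 healthy mice on FGF23, 4 anti-GBM mice on vehicle and 3 anti-GBM mice on FGF23. The second experiment used female BALB/c mice, also 10 weeks old, which were either healthy or had Adriamycin nephropathy, a toxic podocyte injury. Each of the 4 groups held 4 mice, whose kidneys were taken 24 h after 1 intravenous dose of FGF23 (1 µg) or of its vehicle. The third experiment used precision-cut kidney slices (PCKS) from male DBA/2J mice with adenine nephropathy, 23 weeks old. The slices were cultured with FGF23 at 200 ng/mL or vehicle, with 4 cultures in each group and no healthy slices. The slice labels give 1 h of treatment, whereas the study's methods text gives another time. In vivo RNA came from a fragment of each kidney and not from sorted cells.

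Chemokines are small secreted proteins that bind seven-transmembrane G protein-coupled receptors on leukocytes and steer their migration along a gradient. CC ligands such as Ccl2 mainly draw monocytes, macrophages and T cells, CXC ligands that bind Cxcr2 draw neutrophils, and the interferon-inducible ligands of Cxcr3 draw activated T cells. Atypical receptors (Ackr) bind chemokines without G protein signalling and remove them. In glomerulonephritis, injured glomerular and tubular cells as well as infiltrating leukocytes are known sources of these ligands.

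Libraries of C57BL/6 mice held 13704248 to 23630210 counts, those of BALB/c mice 15665050 to 27583911 and those of slices 11186925 to 16254987. A filter on low counts left 39, 29 and 41 of the 62 members for testing in these experiments, and 26 members passed in all 3. The members that passed in no experiment numbered 16, namely Ccl1, Ccl19, Ccl21a, Ccl21b, Ccl24, Ccl26, Ccl27b, Ccr3, Ccr4, Ccr6, Ccr8, Ccr10, Cxcl15, Cxcr1, Xcl1 and Ackr1. Of these Ccl21a, Ccl21b, Ccl26 and Ccl27b had no count in any library. The handling of reads that map to several places is not given in the sources used here, so low values of genes with near-identical copies, such as Ccl21a, Ccl21b, Ccl27a and Ccl27b, are uncertain. Proximal tubule markers (Lrp2, Slc34a1, Slc5a2 and Slc5a12) had summed levels of 5168 to 12275 CPM (counts scaled to library size) in vivo, and 225 to 567 in slices, where the kidney label therefore rests on lower levels. Slice culture 1F stood apart on the first principal component, at 43.8 against −18.2 to 12.3 in the other 7 cultures.

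Many members lie side by side in the genome (GRCm38). On chromosome 5, 7 members, Cxcl5, Ppbp, Pf4, Cxcl3, Cxcl15, Cxcl1 and Cxcl2, lie between positions 90759360 and 90905938, and Cxcl9, Cxcl10 and Cxcl11 between 92321347 and 92365485. On chromosome 11, Ccl2, Ccl7, Ccl11, Ccl12 and Ccl8 lie between 82035571 and 82116799. The transcription factor NF-kB drives many inflammatory chemokines. Upstream sequences are shown for 5 ligands that all hold an NF-kB consensus match, and so do not stand for their classes. They include neutrophil-attracting ligands and the interferon-inducible Cxcl10, to which the results return. Each is RefSeq sequence (GRCm38.p6) on the gene's strand, 5′ to 3′, ending at the base before the annotated start. Capitals mark matches to the NF-kB consensus on either strand and, in Cxcl10, also to the interferon-stimulated response element (ISRE).
Cxcl1, chr5:90891115-90891244, plus strand: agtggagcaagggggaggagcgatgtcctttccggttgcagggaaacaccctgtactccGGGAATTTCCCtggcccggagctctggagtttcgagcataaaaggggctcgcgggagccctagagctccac
Cxcl2, chr5:90903769-90903898, plus strand: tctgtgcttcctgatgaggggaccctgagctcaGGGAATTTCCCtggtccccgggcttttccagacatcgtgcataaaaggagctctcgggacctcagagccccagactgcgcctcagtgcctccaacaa
Cxcl3, chr5:90785971-90786100, plus strand: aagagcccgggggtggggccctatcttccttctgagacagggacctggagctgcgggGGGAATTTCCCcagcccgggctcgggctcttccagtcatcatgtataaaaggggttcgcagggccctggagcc
Ccl20, chr1:83116636-83116765, plus strand: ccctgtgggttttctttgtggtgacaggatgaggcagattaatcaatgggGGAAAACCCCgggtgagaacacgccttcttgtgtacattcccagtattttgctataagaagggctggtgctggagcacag
Cxcl10, chr5:92348890-92349139, minus strand: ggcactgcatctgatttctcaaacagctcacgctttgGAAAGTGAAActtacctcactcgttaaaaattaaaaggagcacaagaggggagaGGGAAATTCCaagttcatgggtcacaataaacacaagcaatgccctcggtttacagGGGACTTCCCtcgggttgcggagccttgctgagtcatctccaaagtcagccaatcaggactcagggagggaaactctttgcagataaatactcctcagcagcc

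Cxcl1, Cxcl2 and Cxcl3 carried the same capital run, which begins 71, 97 and 73 bases before the start, respectively. In that run a match on the plus strand overlaps a match on the minus strand. In Cxcl10 the ISRE, searched as GAAANNGAAA, lies 213 to 204 bases before the start, and the NF-kB matches begin 159 and 103 bases before it. Over windows of 300 bases (250 before and 50 after the start), 10 of 54 member promoters (18.5%) held an NF-kB consensus match on either strand, compared with 4.51% of all 32851 promoters. The promoters of Ppbp, a Cxcr2 ligand, and of Cxcl9, a Cxcr3 ligand, held no NF-kB match. The ISRE was found in 5.56% of member promoters and 3.44% of all. The AP-1 motif TGANTCA was found in 18.5% and 7.81%, the interferon-gamma-activated sequence TTCNNNGAA in 5.56% and 8.3%, and TATAAA in 27.8% and 13.6%. These are letter matches in 47 members with a promoter entry, and neighbouring genes that arose by duplication share sequence.

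In healthy kidney a few members made up most of the signal. In CPM per kilobase of exon, which allows levels to be compared between genes, vehicle-treated healthy C57BL/6 kidney had Cx3cl1 at 30.4, Cxcl12 at 23.5, Cxcl14 at 17.2, Cxcl16 at 14.1 and Ackr3 at 12.3. The next member, Cxcl10, was at 2.7. Cx3cl1 is the membrane-bound ligand of Cx3cr1, Cxcl12 the homeostatic ligand of Cxcr4, and Cxcl16 a transmembrane ligand of Cxcr6. The same 5 genes led in healthy BALB/c kidney on vehicle, where Cxcl12 was at 34.4, Cx3cl1 at 19.2, Cxcl16 at 18.1, Ackr3 at 15.5 and Cxcl14 at 9.46. In anti-GBM kidney on vehicle Cx3cl1 was at 50.9 and Cxcl16 at 33.6, and in vehicle-treated adenine slices Cxcl14 was at 177, Cxcl16 at 75.6, Pf4 at 67.2, Cxcl1 at 56.4 and Ccl2 at 43.5. Exon lengths came from a gene annotation that differs in release from the one used for counting.

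In anti-GBM disease without FGF23, chemokine genes rose across most ligand classes. Of the 39 members tested, 26 (66.7%) were called higher than in healthy mice and 0 lower, at an adjusted p below 0.05 in edgeR's quasi-likelihood test, while 19.4% of all genes tested were called higher and 20.4% lower. The median log2 fold change was 1.46 over these members and −0.01 over all genes. The filter let in members that were near 0 in healthy kidney through the diseased mice. Without any filter 29 members were called higher, and the share of all genes called without it is not given here. All member genes together took 409 to 540 ppm of the counts in healthy vehicle mice and 649 to 833 ppm in anti-GBM vehicle mice.

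The ligands of Cxcr2, which recruit neutrophils, had the largest differences, with 3 of 3 tested called higher. Cxcl1 was at 0.340, 0.285, 0.399 and 0.596 CPM in the 4 healthy vehicle mice and at 14.4, 27, 14.4 and 13 CPM in the 4 anti-GBM vehicle mice. The groups did not overlap, and the log2 fold change was 5.42 ± 0.49 (SE, adjusted p = 4.81e-06). Cxcl2 was at 0, 0.0950, 0.200 and 0.0663 CPM in healthy mice and at 4.14, 5.79, 5.29 and 3.82 CPM in anti-GBM mice. Because healthy mice had only 7 Cxcl2 counts in all, against 327, the size is given as a ratio of summed counts, which was 50.4 (95% exact interval 24.2 to 126, counting error only). The fitted log2 fold change, which depends on the prior count, was 5.56 ± 0.42 (adjusted p = 1.56e-06). Cxcl5 was at 0, 0.0475, 0 and 0 CPM in healthy mice and at 1.79, 1.87, 1.44 and 0.504 CPM in anti-GBM mice. Here 99 counts stood against 1, a ratio of 107 with an interval of 18.7 to 4260 (fitted 6.14 ± 0.78, adjusted p = 6.36e-05). Both Cxcl2 and Cxcl5 were higher in every anti-GBM mouse than in any healthy mouse. Cxcr2 itself, the neutrophil receptor for these ligands, had 50 counts against 9, a ratio of 5.99 (2.92 to 13.9; adjusted p = 0.00373). Cxcl3 and Ppbp did not pass the filter.

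Neutrophil markers moved with these genes. All 4 tested of S100a8, S100a9, Ly6g, Csf3r and Retnlg were called higher, and their summed level was 1.24 to 2.12 CPM in healthy and 9.01 to 18.2 CPM in anti-GBM vehicle mice. In the healthy mice 1 of the 5 markers had no count. Pan-leukocyte markers (Ptprc, Cd53, Coro1a, Laptm5) were called higher in 4 of 4, from 41.3–52.3 to 76.7–131 CPM summed, and macrophage markers in 4 of 6, from 92.1–112 to 157–355 CPM. T cell markers were called higher in 2 of 5, with sums of 3.23–6.49 and 4.90–11.2 CPM. The part of these markers in the chemokine differences was not tested. In whole kidney, more cells of a type and more RNA per cell cannot be told apart.

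**Figure D1:**
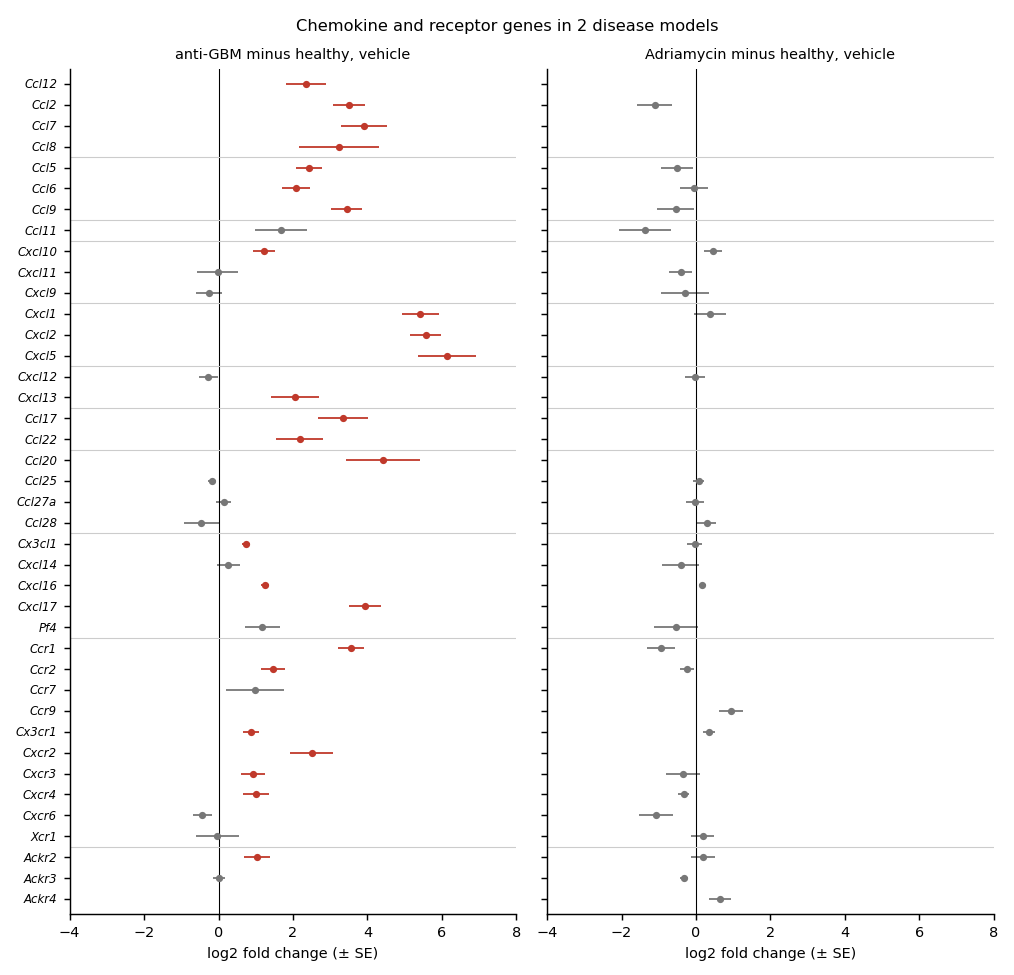
Log2 fold change (point) with its standard error (bar) for members tested, disease minus healthy in vehicle-treated mice, for anti-GBM disease (left) and Adriamycin nephropathy (right). Red marks an adjusted p below 0.05, grey lines separate role groups and an empty row was not tested. The red members are all in the anti-GBM panel and lie to the right of 0, with Cxcl5, Cxcl2 and Cxcl1 farthest. Fitted values of members near 0 counts in healthy mice, such as Cxcl5, depend on the prior count.

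The ligands of Ccr2, which draw inflammatory monocytes, were called higher in 4 of 4. Ccl2 was at 0.566, 0.285, 0.749 and 0.928 CPM in healthy mice and at 8.69, 9.72, 4.93 and 5.11 CPM in anti-GBM mice. The groups were apart, with a log2 fold change of 3.51 ± 0.43 (adjusted p = 4.54e-05). Ccl7 was at 0, 0.0475, 0.0998 and 0.133 CPM in healthy and at 1.02, 1.87, 0.925 and 0.648 CPM in anti-GBM mice, without overlap. Its 76 counts against 5 gave a ratio of 16.4 (6.73 to 51.9; fitted 3.91 ± 0.61, adjusted p = 0.000282). Ccl12 rose by a log2 fold change of 2.35 ± 0.54 (adjusted p = 0.00358). Ccl8 varied most between mice, at 9.05, 3.80, 0.257 and 0.144 CPM in anti-GBM and at 0.283, 0, 0.899 and 0.199 CPM in healthy mice. The groups of Ccl8 overlapped, and its call (log2 fold change 3.24 ± 1.08, adjusted p = 0.0286) was lost when any of mice NTS1, NTS2, NTS4 or NTS5 was left out.

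CC ligands of the Ccl3, Ccl4, Ccl5, Ccl6 and Ccl9 group, which draw macrophages and T cells, were called higher in 3 of 3 tested. Ccl9 was at 0.736, 1.09, 2.35 and 1.19 CPM in healthy and at 23.6, 19.6, 9.40 and 6.48 CPM in anti-GBM mice. All anti-GBM mice lay above the healthy mice, and the log2 fold change was 3.44 ± 0.42 (adjusted p = 5.01e-05). Ccl5, a T cell and macrophage product, was at 1.25, 1.14, 2.80 and 1.33 CPM in healthy mice and at 6.85, 9.46, 7.14 and 12.2 CPM in anti-GBM mice (log2 fold change 2.43 ± 0.35, adjusted p = 0.000169). Ccl6 rose by 2.08 ± 0.37 (adjusted p = 0.000709), and here too the groups were apart. Ccl3 and Ccl4, the macrophage inflammatory proteins, did not pass the filter and were at most 0.360 and 0.576 CPM in any healthy or anti-GBM vehicle mouse.

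Of the 3 Cxcr3 ligands tested, 1 was called higher. Cxcl10 was at 4.24, 6.41, 6.79 and 6.82 CPM in healthy and at 9.15, 16.3, 16.6 and 14.5 CPM in anti-GBM mice. All 4 anti-GBM mice lay above the healthy mice, with a log2 fold change of 1.22 ± 0.30 (adjusted p = 0.00526). Cxcl9 had a log2 fold change of −0.26 ± 0.35 (adjusted p = 0.58) and Cxcl11 of −0.03 ± 0.54 (adjusted p = 0.973). Whether Cxcl10 differed from the other two was not tested. Cxcr3 itself was called higher, at 0.93 ± 0.33 (adjusted p = 0.0346), with overlapping groups.

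The membrane-bound ligands Cxcl16 and Cx3cl1 were both called higher. Cxcl16 was at 42.5, 43.4, 45.0 and 39.8 CPM in healthy and at 106, 116, 89.6 and 93.9 CPM in anti-GBM mice. The replicates lay close together and the groups far apart, with a log2 fold change of 1.25 ± 0.10 (adjusted p = 1.74e-06). Cx3cl1 was at 129, 125, 121 and 104 CPM in healthy and at 164, 197, 215 and 223 CPM in anti-GBM mice, a log2 fold change of 0.74 ± 0.10 (adjusted p = 0.000128). Cxcl17, a mucosal chemokine, was at 0.0566, 0.0950, 0.0499 and 0.133 CPM in healthy and at 0.971, 1.93, 1.70 and 0.792 CPM in anti-GBM mice. Its groups were apart, and 93 counts against 6 gave a ratio of 16.7 (7.4 to 46.7; fitted 3.94 ± 0.43, adjusted p = 4.54e-05). Ccl20, the ligand of Ccr6, had 93 counts against 4, a ratio of 25.1 (9.47 to 94.0; adjusted p = 0.00336), and the largest anti-GBM value was 2.83 CPM in mouse NTS7. Ccl17 and Ccl22, the ligands of Ccr4 made by dendritic cells, were called higher in 2 of 2, at 3.35 ± 0.68 and 2.18 ± 0.62 (adjusted p = 0.00171 and 0.0129). Ccl22 overlapped between groups.

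Several constitutive ligands were not called. Cxcl12 had a log2 fold change of −0.27 ± 0.25, Cxcl14 of 0.26 ± 0.30, Ccl25 of −0.18 ± 0.12, Ccl27a of 0.13 ± 0.19 and Ccl28 of −0.46 ± 0.46. Of the lymphoid group, Cxcl13, the B cell attractant, was called higher at 2.05 ± 0.65 (adjusted p = 0.0226). Pf4, a platelet and macrophage ligand, was at 1.17 ± 0.47 (adjusted p = 0.0615) and the eotaxin Ccl11 at 1.67 ± 0.69 (adjusted p = 0.0686).

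Receptors were called higher in 7 of 10 tested. Ccr1, found on monocytes and neutrophils, was at 0.226, 0.143, 0.499 and 0.331 CPM in healthy and at 2.96, 2.19, 4.88 and 4.32 CPM in anti-GBM mice. The groups were apart, with a log2 fold change of 3.56 ± 0.36 (adjusted p = 1.07e-05). Cx3cr1, the receptor of resident macrophages and patrolling monocytes, was at 7.47, 8.74, 7.29 and 8.15 CPM in healthy and at 14.7, 19.8, 13 and 10.4 CPM in anti-GBM mice (log2 fold change 0.87 ± 0.22, adjusted p = 0.00644). Ccr2, the receptor of inflammatory monocytes, rose by 1.46 ± 0.31 (adjusted p = 0.00243), without overlap. Cxcr4, the receptor of Cxcl12, was called at 1.00 ± 0.35 (adjusted p = 0.0343) with overlapping groups. Cxcr6, found on T and NK cells, was at −0.43 ± 0.25 (adjusted p = 0.19), Ccr7 at 0.98 ± 0.79 and Xcr1, a marker of a dendritic cell subset, at −0.04 ± 0.58. Among atypical receptors, Ackr2, a scavenger of inflammatory CC chemokines, was called higher at 1.04 ± 0.36 (adjusted p = 0.032), and Ackr3 had 0.02 ± 0.16.

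**Figure D2:**
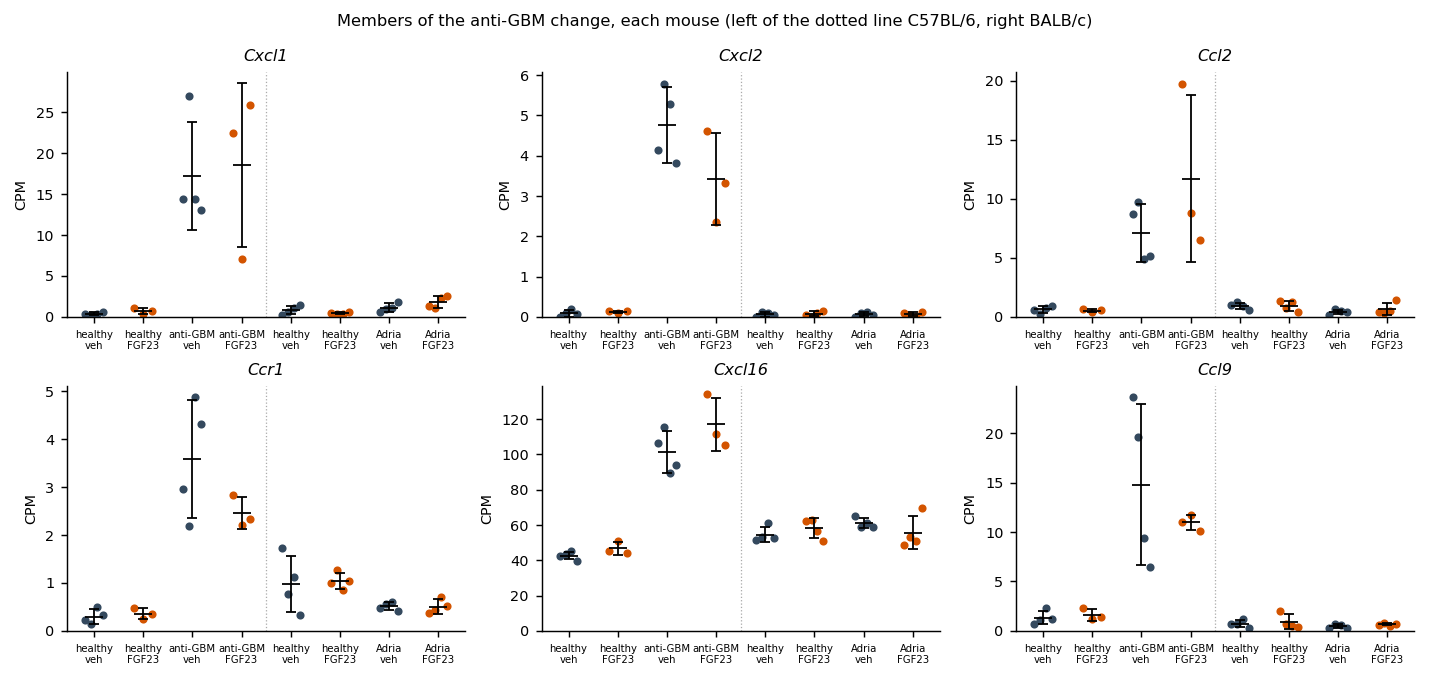
CPM of 6 members in each mouse (points), with group mean and standard deviation (bars), in the 4 groups of the anti-GBM experiment and the 4 groups of the Adriamycin experiment (Adria); blue is vehicle (veh) and orange FGF23. Each anti-GBM mouse lies above each healthy C57BL/6 mouse for all 6 genes, and Cxcl16 is at 106 to 134 CPM in anti-GBM mice on FGF23.

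Under FGF23, anti-GBM mice were likewise compared with healthy mice. Of 39 members tested, 24 (61.5%) were called higher and 0 lower, against 14.5% and 12.7% of all genes, and the median log2 fold change was 1.36. The log2 fold changes were 2.83 ± 0.35 for Cxcl10, 1.83 ± 0.25 for Cx3cr1 and 1.32 ± 0.11 for Cxcl16. Cxcl17 had 89 counts in anti-GBM mice and 0 in the healthy mice on FGF23, and was at least 9.15-fold higher against a floor of 3 counts per library. Cxcr6 (0.92 ± 0.27, adjusted p = 0.0224) and Ackr3 (0.63 ± 0.19, adjusted p = 0.0247) were called here and not under vehicle, while Ccl8, Ccl22, Cxcr2 and Cxcr4 were called under vehicle and not here. The differences between the vehicle and FGF23 arms are tested by the interaction given below. The count of calls fell to 18 without healthy mouse NTS11.

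FGF23 itself was compared with vehicle within anti-GBM disease. No member was called by edgeR, against 0.24% of all genes, whereas 11 of 39 members had an unadjusted p below 0.05, 10 of them higher under FGF23. DESeq2 called 3 members, and edgeR called 5 when p-values were adjusted over all contrasts of the experiment combined; the study's methods also adjust over contrasts together. In all genes tested, 12.6% had an unadjusted p below 0.05.

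Cxcr6 was at 1.07, 0.708, 0.822 and 0.792 CPM in the vehicle mice and at 2.21, 1.90 and 1.58 CPM in the FGF23 mice. The groups were apart, with a log2 fold change of 1.15 ± 0.26 (adjusted p = 0.131). Cx3cr1 was at 35.8, 31.7 and 17.3 CPM under FGF23, of which the third overlapped the vehicle mice (0.96 ± 0.22, adjusted p = 0.138). Without that mouse, NTS16, Cx3cr1 was called, at 1.22 with an adjusted p of 0.0124. Cxcl10 was at 44.0, 25.3 and 21.4 CPM under FGF23, all above the vehicle mice (1.10 ± 0.30, adjusted p = 0.222). Cxcl11, the other ligand of this kind, was at 0.307, 0.450, 0.257 and 0.288 CPM under vehicle and at 1.92, 0.801 and 0.545 CPM under FGF23 (1.74 ± 0.49, adjusted p = 0.243). In DESeq2 the adjusted p was 0.0119 for Cx3cr1 and 0.0431 for Cxcl10. Those called under combined adjustment included Cxcr6, Cx3cr1, Cxcl10 and Cxcl11.

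Ccl7 was at 3.60, 2.25 and 1.24 CPM under FGF23, overlapping the vehicle mice (1.08 ± 0.41, adjusted p = 0.344). Ccl2 was at 19.7, 8.76 and 6.54 CPM (0.72 ± 0.36, adjusted p = 0.412). The neutrophil ligands had values on both sides of 0, with Cxcl1 at 0.11 ± 0.36, Cxcl2 at −0.47 ± 0.29 and Cxcl5 at −1.14 ± 0.47 (adjusted p = 0.364). Cxcl5 was the member lower under FGF23 at an unadjusted p below 0.05. The Cxcr3 ligands summed to 12.7–21.2 CPM under vehicle and 28.7–50.02 CPM under FGF23, and the Cxcr2 ligands to 18.4–35.2 and 10.4–29.9 CPM. Beside these values, pan-leukocyte markers summed to 76.7–131 CPM under vehicle and 136–153 CPM under FGF23, dendritic cell markers to 19.2–32.7 and 33.8–34.8 CPM, and neutrophil markers to 9.01–18.2 and 5.99–9.16 CPM. T cell markers summed to 4.90–11.2 and 11.2–12.2 CPM, with 5 of 5 above 0 in log2 fold change (median 0.52), and NK cell markers to 1.44–2.26 and 1.83–3.45 CPM, with 2 of 2 tested above 0 (median 0.56). Macrophage markers summed to 157–355 and 264–288 CPM. No marker in these lists was called, and their part in the chemokine differences was not tested.

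**Figure D3:**
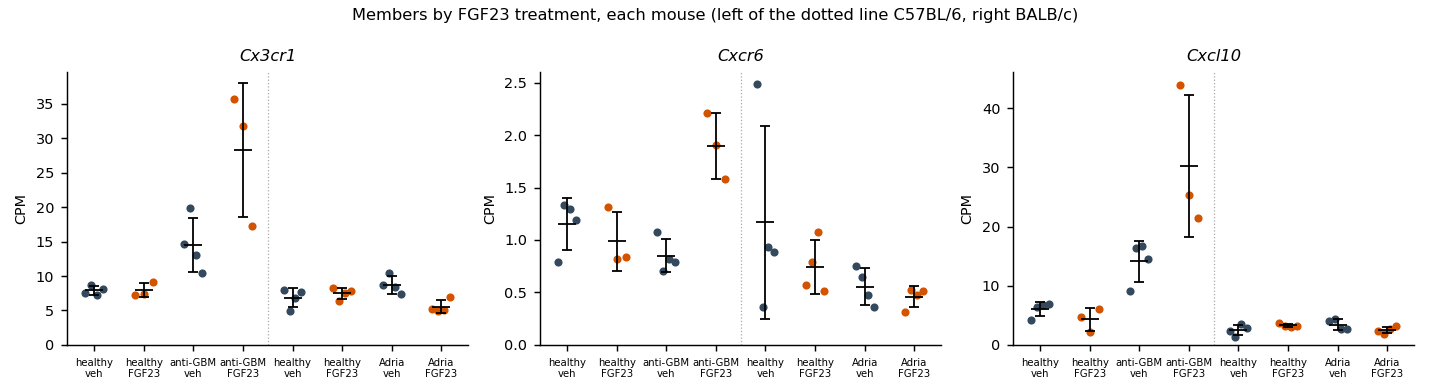
CPM of Cx3cr1, Cxcr6 and Cxcl10 in each mouse (points), with group mean and standard deviation (bars); blue is vehicle (veh), orange FGF23, C57BL/6 groups to the left of the dotted line and BALB/c groups to the right. In anti-GBM mice the FGF23 points lie above the vehicle points for Cxcr6 and Cxcl10, while for Cx3cr1 the lowest is 17.3 CPM and the highest vehicle mouse 19.8 CPM.

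In healthy C57BL/6 mice no member was called between FGF23 and vehicle, nor was any gene (0% of genes tested). By edgeR 1 member had an unadjusted p below 0.05, against 4.34% of all genes tested, and DESeq2 called 0. That member was Cxcl17, which had 0 counts in the 3 FGF23 mice and 6 in the 4 vehicle mice, with both groups at or under the floor of 3 counts per library. Ackr3 was at 37.5, 49.1, 37.5 and 39.95 CPM under vehicle and at 31.3, 35.6 and 31.5 CPM under FGF23 (−0.32 ± 0.18, adjusted p = 0.996). Cxcr3 was at 0.283, 0.713, 0.649 and 0.795 CPM and at 1.17, 0.673 and 0.976 CPM (0.62 ± 0.35, adjusted p = 0.996). The groups of Cxcr3 overlapped and those of Ackr3 did not.

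The interaction compares the FGF23 effect in diseased C57BL/6 mice with that in healthy ones. No member was called by edgeR, against 0.0315% of all genes, and DESeq2 called 0. At an unadjusted p below 0.05 there were 7 of 39 members, against 8.3% of all genes tested. All 7 had a difference above 0, that is, a higher signed log2 change under FGF23 in anti-GBM than in healthy mice. The sign does not tell which group changed more. Cxcr6 led, with a difference of 1.36 ± 0.37 (log2, adjusted p = 0.363), followed by Cxcl10 at 1.61 ± 0.45 (adjusted p = 0.371). Cxcl10 was at 4.74, 2.21 and 5.99 CPM in healthy FGF23 mice and Cxcr6 at 1.31, 0.817 and 0.836 CPM. The third, Cxcl17, rests on the healthy groups at the floor (adjusted p = 0.473). With adjustment over the contrasts combined, 2 members, Cxcl10 and Cxcr6, were called.

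In Adriamycin nephropathy no member was called. Of 29 members tested in vehicle-treated BALB/c mice, 0 were called by edgeR and 0 by DESeq2, while 0.119% of all genes were called higher and 0.212% lower. Unadjusted, 7 members had a p below 0.05, 2 of them higher, against 8.27% of all genes tested. The smallest p was that of Ackr3, the scavenging receptor for Cxcl12, at 47.1, 50.8, 60.4 and 49.0 CPM in healthy and at 37.6, 41.9, 43.5 and 41.2 CPM in Adriamycin mice. All Adriamycin mice lay below the healthy mice (−0.33 ± 0.11, adjusted p = 0.333). Cx3cr1 was at 7.95, 4.97, 6.86 and 7.70 CPM in healthy and at 8.66, 10.5, 8.48 and 7.33 CPM in Adriamycin mice (0.35 ± 0.15, adjusted p = 0.563). Cxcl10 was at 2.34, 1.39, 3.58 and 2.79 CPM and at 3.98, 4.36, 2.75 and 2.62 CPM (0.45 ± 0.24, adjusted p = 0.672), with overlap. Ccr9, the gut-homing receptor, was at 0.94 ± 0.32 (adjusted p = 0.363), and Ackr4, an atypical receptor that removes lymphoid chemokines, at 0.64 ± 0.30 (adjusted p = 0.653). Cxcl10 and Ackr4 were not among the 7 members. The rest of the 7 were lower, with Ccl2 at −1.11 ± 0.47, Cxcr6 at −1.08 ± 0.45, Ccr1 at −0.95 ± 0.37 and Cxcr4 at −0.33 ± 0.15. Their adjusted p by edgeR was 0.537, 0.511, 0.471 and 0.586, respectively. Pan-leukocyte markers summed to 31.3–40.4 CPM in healthy and 32.5–41.8 CPM in Adriamycin mice, macrophage markers to 148–190 and 87.6–159 CPM, T cell markers to 3.53–6.99 and 2.80–3.58 CPM, and neutrophil markers to 1.48–1.94 and 2.01–3.31 CPM. No marker in these lists was called, and their part in the member values was not tested.

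Under FGF23, Adriamycin mice were compared with healthy mice that had received the same injection. No member of 29 was called by edgeR, against 0.462% of all genes called higher and 0.237% lower. Unadjusted p-values below 0.05 were found for 8 members, 1 of them higher, and for 12.7% of all genes. DESeq2 called 2 members, and its share of all genes is not given here. Cxcl1 was at 0.429, 0.317, 0.378 and 0.659 CPM in healthy and at 1.35, 1.10, 2.28 and 2.51 CPM in Adriamycin mice. The groups were apart (2.00 ± 0.46, adjusted p = 0.0602). Ackr3 was at 65.0, 49.1, 45.1 and 51.3 CPM in healthy and at 34.8, 39.1, 43.9 and 33.9 CPM in Adriamycin mice, also apart (−0.47 ± 0.11, adjusted p = 0.0652). These were the members called by DESeq2.

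A single injection of FGF23 in Adriamycin nephropathy gave no call among 29 members by edgeR, against 0.0375% of all genes. At an unadjusted p below 0.05 there were 2 members, both lower, against 5.69% of all genes tested. DESeq2 called 1 member, and its share of all genes is not given here. Cx3cr1 was at 8.66, 10.5, 8.48 and 7.33 CPM under vehicle and at 5.24, 4.88, 5.09 and 7.01 CPM under FGF23. All FGF23 mice lay below the vehicle mice (−0.67 ± 0.16, adjusted p = 0.292), and DESeq2 called this gene, with an adjusted p of 0.0307. Ccr2 was not among these 2 members, as its unadjusted p by edgeR was 0.0581. It was at 4.35, 4.13, 3.70 and 3.52 CPM under vehicle and at 2.54, 2.55, 2.86 and 3.92 CPM under FGF23, with overlap (−0.42 ± 0.20, adjusted p = 0.885). Pan-leukocyte markers summed to 32.5–41.8 CPM under vehicle and 26.4–36.6 CPM under FGF23, macrophage markers to 87.6–159 and 100–124 CPM, and neutrophil markers to 2.01–3.31 and 0.792–1.74 CPM. No marker in these lists was called, and their part was not tested.

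In healthy BALB/c mice FGF23 gave no call among members or all genes (0%). No member had an unadjusted p below 0.05 in edgeR, against 6.69% of all genes tested, and DESeq2 called 0. The smallest p values were those of Cxcl1 (−0.93 ± 0.49, adjusted p = 0.777), Xcr1 (0.53 ± 0.30, adjusted p = 0.798) and Ccl28 (−0.48 ± 0.27, adjusted p = 0.798). Cxcl1 was at 0.293, 0.626, 1.13 and 1.4 CPM under vehicle and at 0.429, 0.317, 0.378 and 0.659 CPM under FGF23. Xcr1 was at 0.879, 0.313, 0.833 and 0.635 CPM under vehicle and at 0.858, 1.23, 0.809 and 0.942 CPM under FGF23. Ccl28, an epithelial ligand, was at 3.37, 2.64, 1.71 and 2.79 CPM and at 3.00, 1.35, 1.4 and 1.84 CPM. All 3 genes overlapped between groups.

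The interaction of FGF23 with Adriamycin nephropathy called no member and no gene (0%) by edgeR, and DESeq2 called 0 members. At an unadjusted p below 0.05 there were 5 of 29 members, 1 of them positive, against 5.11% of all genes tested. Cx3cr1 had the smallest p, with a difference of −0.78 ± 0.22 (log2, adjusted p = 0.858), followed by Cxcl1 at 1.62 ± 0.64 and Cxcl10 at −0.85 ± 0.34 (adjusted p = 0.967 for both). Cx3cr1 was at 8.25, 6.34, 7.50 and 7.77 CPM in healthy FGF23 mice, close to the healthy vehicle mice. Cxcl10 was at 3.72, 3.13, 3.07 and 3.2 CPM in healthy and at 2.33, 1.89, 2.62 and 3.21 CPM in Adriamycin mice on FGF23.

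**Figure D4:**
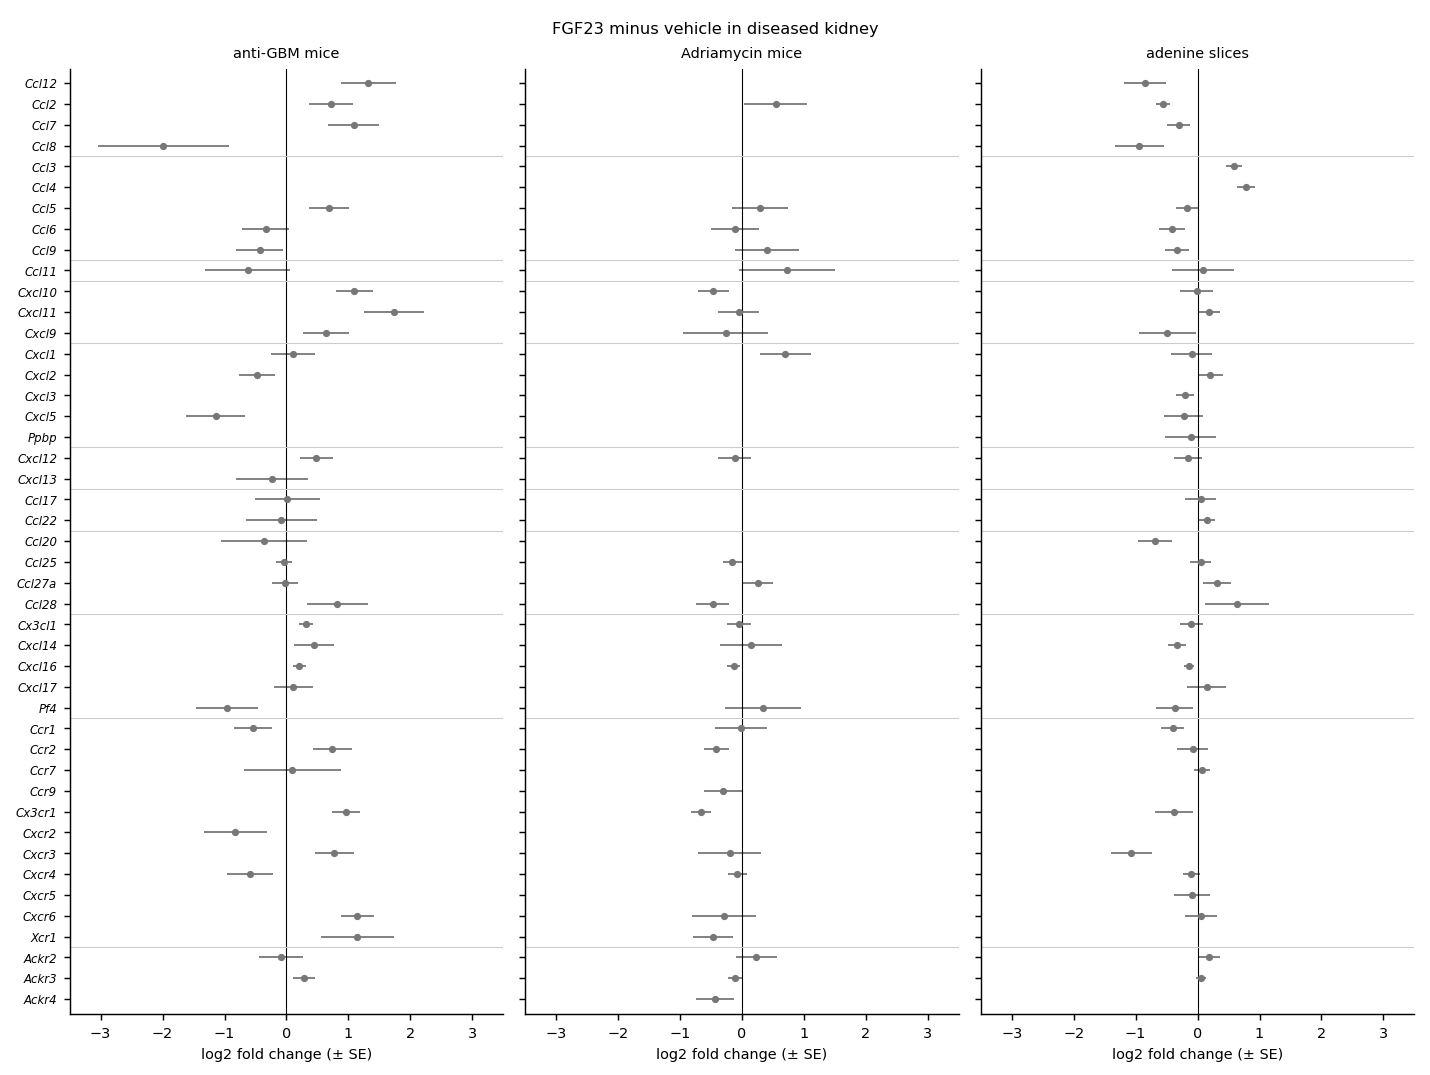
Log2 fold change (point) with its standard error (bar) for members tested, FGF23 minus vehicle, in anti-GBM mice, Adriamycin mice and adenine slices. No point has an adjusted p below 0.05, grey lines separate role groups and an empty row was not tested. Cx3cr1 is at 0.96 in anti-GBM mice, −0.67 in Adriamycin mice and −0.38 in slices.

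The anti-GBM and Adriamycin disease effects in vehicle mice were then compared directly in 1 fit of all 30 mice. Of 42 members tested, 20 (47.6%) were called with a difference (anti-GBM minus Adriamycin log2 change) above 0, and 0 below 0. Of all genes tested, 15.7% were called above 0 and 15.7% below. A difference below 0 can also come from a fall in anti-GBM disease. Model, strain, sex and the number of vehicle injections (6 against 1) differed together between the experiments and cannot be told apart.

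The difference was 4.52 ± 0.53 (log2, adjusted p = 1.29e-06) for Ccr1, which was at 1.72, 0.761, 1.13 and 0.339 CPM in healthy BALB/c and at 0.468, 0.551, 0.602 and 0.417 CPM in Adriamycin mice. Cxcl16 was at 51.4, 53.5, 61.1 and 52.4 CPM in healthy BALB/c and at 65.3, 59.1, 61.1 and 59.0 CPM in Adriamycin mice, and the difference was 1.09 ± 0.14 (adjusted p = 4.56e-06). Cxcl1 was at 0.561, 1.01, 1.08 and 1.85 CPM in Adriamycin mice, overlapping healthy BALB/c, with a difference of 5.06 ± 0.70 (adjusted p = 9.94e-06). The monocyte ligand Ccl2 was at 1.03, 1.25, 0.882 and 0.593 CPM in healthy BALB/c and at 0.187, 0.643, 0.473 and 0.417 CPM in Adriamycin mice. Its difference was 4.63 ± 0.67 (adjusted p = 1.48e-05), from 3.53 in anti-GBM disease and −1.11 in Adriamycin nephropathy. Ccl9 was at 0.696, 0.716, 1.22 and 0.339 CPM and at 0.328, 0.735, 0.602 and 0.298 CPM, with a difference of 4.00 ± 0.70 (adjusted p = 0.000127). Ccl5 was at 1.46, 0.895, 1.71 and 0.593 CPM and at 1.12, 1.06, 0.559 and 0.477 CPM, with a difference of 2.96 ± 0.58 (adjusted p = 0.000433). Of these 6 genes, each was higher in every anti-GBM mouse than in any healthy C57BL/6 mouse, and each overlapped between healthy and Adriamycin BALB/c mice.

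Cxcl2 and Ccl17 were near the limit of detection in BALB/c kidney. Cxcl2 was at 0, 0.134, 0.0980 and 0.0423 CPM in healthy and at 0, 0.0918, 0.129 and 0.0596 CPM in Adriamycin mice, and Ccl17 at 0.256, 0.0895, 0.147 and 0.169 CPM and at 0.0468, 0, 0.0861 and 0.119 CPM. Their differences of 5.44 ± 1.18 and 4.76 ± 1.03 (adjusted p = 0.00104 and 0.00106) depend on the prior count of the fit. The healthy level of Cxcr6 also varied in BALB/c, at 2.49, 0.358, 0.931 and 0.889 CPM.

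The adenine slices were described first by their neutrophil-attracting ligands. In vehicle cultures Cxcl2 was at 62.8, 31.8, 72.6 and 46.6 CPM, and Cxcl3, which passed the filter in no in vivo experiment, at 14.5, 17.3, 16 and 16.9 CPM. Ppbp, a platelet-derived Cxcr2 ligand, was at 12.9, 44.9, 9.26 and 29 CPM. Cxcr5, the receptor of Cxcl13, was tested in slices alone and had a log2 fold change of −0.09 ± 0.29 with FGF23 (adjusted p = 0.958). Cxcl9 and Xcr1 were at most 1.06 and 0.299 CPM in any vehicle culture. All members together took 1567 to 1841 ppm of the counts in vehicle and 1415 to 1606 ppm in FGF23 cultures. Slices and whole kidneys differed in model, strain, age and culture, which cannot be told apart, so no test was made between them.

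FGF23 in slices gave no call among 41 members, nor among all genes (0%), by edgeR. At an unadjusted p below 0.05 there were 8 members, 2 of them higher, against 4.89% of all genes tested. DESeq2 called 1 member, and its share of all genes is not given here. Ccl4, a macrophage inflammatory protein, was at 14.3, 14, 12 and 19.4 CPM in the vehicle cultures and at 27.7, 23.5, 23.9 and 27.2 CPM in the FGF23 cultures. The groups were apart, with a log2 fold change of 0.77 ± 0.15 (adjusted p = 0.849), and DESeq2 called this gene, with an adjusted p of 0.0148. Ccl3, its neighbour on chromosome 11, was at 10.3, 8.85, 10.3 and 11.4 CPM under vehicle and at 14.4, 14.1, 14.5 and 18.4 CPM under FGF23, again apart (0.59 ± 0.13, adjusted p = 0.849). Ccl2 was at 49.4, 49.3, 57.1 and 42.1 CPM under vehicle and at 36.3, 33.8, 29.2 and 34.9 CPM under FGF23. Here all FGF23 cultures lay below the vehicle cultures (−0.56 ± 0.11, adjusted p = 0.849). Without culture 1F the log2 fold changes were 0.74 for Ccl4, 0.62 for Ccl3 and −0.60 for Ccl2, and 0 members were called.

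The other Ccr2 ligands had values below 0 as well, with Ccl7 at −0.31 ± 0.19, Ccl8 at −0.94 ± 0.40 and Ccl12 at −0.85 ± 0.34. Ccl7 was at 23.5, 17.7, 22.7 and 17.6 CPM under vehicle and at 23.11, 15.1, 12.6 and 15.1 CPM under FGF23, with overlap. Cxcl10 was at 115, 49.3, 128 and 61.5 CPM and at 77.1, 103, 81.4 and 88.2 CPM (−0.01 ± 0.26). Cx3cr1 was at 14.6, 27.7, 14.4 and 20.9 CPM and at 10.1, 19.8, 8.57 and 21 CPM (−0.38 ± 0.31). The vehicle cultures of Cxcl10 spanned a wider range than the FGF23 cultures and enclosed them. Pan-leukocyte markers summed to 235–271 CPM under vehicle and 158–269 CPM under FGF23, and collecting duct markers (Aqp2, Aqp3) to 11.1–48.0 and 35.6–292 CPM; their part was not tested.

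**Figure D5:**
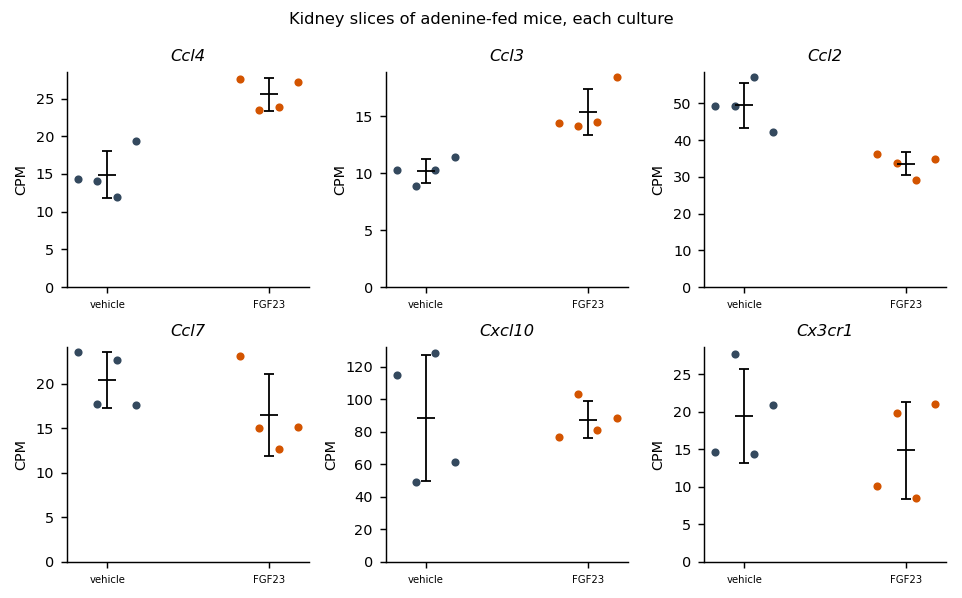
CPM of 6 members in each slice culture (points), with group mean and standard deviation (bars), for vehicle (blue) and FGF23 (orange). For Ccl4 and Ccl3 the 4 FGF23 cultures lie above the 4 vehicle cultures and for Ccl2 below them, while Ccl7, Cxcl10 and Cx3cr1 overlap.

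Other genes of the pathway, from lists of genes outside the membership rule, were read in the same fits. Of 19 genes that act downstream of chemokine receptors in leukocytes, 16 were called higher and 1 lower in anti-GBM vehicle mice. Of all genes tested, 19.4% were called higher and 20.4% lower. The 16 included Pik3r5, a regulatory subunit of the leukocyte phosphoinositide 3-kinase, at 2.47 ± 0.24 (adjusted p = 8.32e-06), the integrin subunit Itgam at 2.93 ± 0.30 (adjusted p = 1.07e-05) and Arrb2, which uncouples activated receptors, at 1.13 ± 0.11 (adjusted p = 8.27e-06). The gene called lower was Arrb1, at −0.36 ± 0.13 (adjusted p = 0.0374). Pan-leukocyte markers were also called higher in these mice, and their part in these values was not tested. Of 10 tested inducers of chemokine transcription, 6 were called higher, against the same 19.4% of all genes. Among the 6 were the NF-kB subunits Relb at 1.82 ± 0.17 (adjusted p = 7.18e-06) and Nfkb2 at 1.48 ± 0.17 (adjusted p = 2.56e-05). Irf1 had a log2 fold change of 0.22 ± 0.14. Under FGF23 within anti-GBM disease, 2 of the 10 inducers were called higher, against 0.24% of all genes called in either direction. Among the 2 inducers was Irf1, a transcription factor of the interferon response, at 1.24 ± 0.15 (adjusted p = 0.00207). None of the 19 signalling genes and none of 5 chemokine-like genes was called there. In Adriamycin nephropathy and in slices, none of the genes of these lists was called by edgeR for disease or FGF23.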

How the data were processed

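RNA-Seq of 38 mouse kidney libraries was analysed. Per the labels and methods, the authors aligned reads to GRCm38 with STAR 2.7.9a, counted them on Ensembl genes with featureCounts 1.5.1, and deposited raw counts of 55487 genes without normalization. The strand setting is not given in the sources used here, so overlapping and antisense genes may share counts. Gene symbols matched 55141 identifiers. Groups came from the sample labels. Separate animals were sampled in vivo. For slices the paper calls the replicates biologically independent, but the mouse of each culture is not named. The p-values there measure the spread between cultures.

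Counts were scaled by TMM, filtered with filterByExpr (minimum count 10) and tested over all genes with edgeR 4.0.16 (quasi-likelihood F test, 1 fit per experiment with all groups, Benjamini-Hochberg adjustment within each comparison, adjusted p below 0.05) in R 4.3.3. DESeq2 1.42.0 was an alternative, as were RLE scaling, no filter, an absolute log2 fold change above 1, adjustment over contrasts combined, only the groups compared, a replicate block and leaving out each library. CPM are TMM-scaled. The test was checked on simulated counts. Replicate libraries differed from each other by more than sampling noise (chi-square divided by its degrees of freedom at least 2.02). The closest were slice cultures 2F and 4F at 2.02 and 1V and 3V at 2.91. Other slice pairs were at 9.17 to 39.0, and pairs of mice at 5.98 or more. Whether the close cultures share a mouse was not tested, so they may not be independent. No column of the file was left unused. Values in every library are given for the 8 called members with the smallest p in each direction of the vehicle disease comparisons, for at most 8 called members of each FGF23, interaction or between-model comparison or the 3 with the smallest p where none was called, and for Ccl4, Cxcl10, Cx3cr1 and Ccl7. Other members shown in every library, such as Ccl8, Cx3cl1 and Cxcl3, were picked after their values were seen. Some genes that were counted are not reported here. Members and lists were chosen with earlier results of these data known.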

Additional observations from a re-analysis of the deposited data

Results flagged for a closer look

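In groups of 4, 8 of 130 tested groups of member values held a mouse or culture whose gap to the others was above Dixon's critical value, where chance gives about 1 in 20. In healthy C57BL/6 vehicle mice, Cxcl10 was at 4.24 CPM in mouse NTS1 (others 6.41 to 6.82), Ccl5 at 2.80 in NTS3 (1.14 to 1.33) and Ccl28 at 4.70 in NTS4 (14.2 to 14.7). In anti-GBM vehicle mice, Cxcl1 was at 27 CPM in NTS6 (13 to 14.4). In Adriamycin mice on FGF23, mouse Ad16 had Ccl2 at 1.41 CPM (0.352 to 0.476) and Cx3cr1 at 7.01 (4.88 to 5.24). In slices, Ackr3 was at 69.8 CPM in vehicle culture 2V (78.8 to 80.2) and Ccl3 at 18.4 in FGF23 culture 4F (14.1 to 14.5).

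The disease effect in vehicle mice differed between the anti-GBM and Adriamycin experiments, by a test of the difference itself, for 20 members, each with the larger log2 change in anti-GBM disease. Model, strain, sex and the number of vehicle injections cannot be told apart in it. Among ligands of Cxcr2 and Ccr2, the difference was 5.06 for Cxcl1, 5.44 for Cxcl2, 4.63 for Ccl2, 4.65 for Ccl7 and 2.45 for Ccl12. It was 4.00 for Ccl9, 2.96 for Ccl5, 2.15 for Ccl6, 3.07 for Ccl11, 4.76 for Ccl17 and 2.91 for Ccl22. Among the other ligands it was 2.99 for Cxcl13, 1.09 for Cxcl16, 4.11 for Cxcl17 and 0.79 for Cx3cl1. Among receptors it was 4.52 for Ccr1, 1.72 for Ccr2, 2.64 for Cxcr2 and 1.34 for Cxcr4. The values of Cxcl2, Ccl7, Ccl12, Cxcl13, Cxcl17, Ccl17, Ccl22 and Cxcr2 rest on few counts in BALB/c mice and depend on the prior count. None of these passed the filter in the BALB/c experiment. Ccl11 passed it, but the eotaxins Ccl11 and Ccl24 summed to only 0.466–0.735 CPM in healthy and 0.043–0.321 CPM in Adriamycin vehicle mice.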

How the results depend on the processing

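Members called higher in anti-GBM disease numbered 22 to 27 under vehicle and 18 to 25 under FGF23 with each mouse left out, and 17 to 21 in the comparison of the models. Fitting only the groups compared left 20 under vehicle, of which 19 were shared with the full fit. For FGF23 in anti-GBM disease the count of 0 became 5 with combined adjustment, 3 with DESeq2, 1 (Cx3cr1) without a filter, and 0 to 1 with each mouse left out. The interaction gave 2 with combined adjustment. Adriamycin against healthy mice under FGF23 gave 2 without a filter and 2 with DESeq2, FGF23 in Adriamycin mice gave 1 with DESeq2, and slices gave 1 with DESeq2. The cause was not tested. Over all genes, FGF23 in anti-GBM disease called 38 by edgeR, 153 by DESeq2 and 298 with combined adjustment. The interaction called 5 genes by edgeR, 44 by DESeq2 and 200 with combined adjustment, and anti-GBM disease under vehicle called 6304, or 1554 with an absolute log2 fold change above 1. The other counts of members were within 1.5 times those reported.

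No paired analysis was possible because the columns of the mice carry no replicate number. In slices, same-numbered cultures correlated at 0.101, 0.095, −0.117 and 0.108, so the numbers were not taken to pair them; with the number as a block 0 members were called, and Ccl4 was at 0.79 (adjusted p = 0.271). Cxcl10 in slices reversed from −0.01 to 0.085 with the block, and ranged from −0.21 to 0.22 with each culture left out. For the members chosen by the rule for values in every library, each in the comparison that chose it, 646 alternative values kept direction and side of the threshold and 7 newly passed it. That tally leaves out the fold limit and combined adjustment, and fits in which a member did not pass the filter, such as Cxcl5 when only the compared groups were fitted. With the fold limit Cx3cr1 was no longer called in anti-GBM disease under vehicle, and outside the rule Ccl8 lost its call without NTS1, NTS2, NTS4 or NTS5. Low counts in healthy mice limit the precision for Cxcl2, Cxcl5, Cxcl17, Ccl7 and Ccl20.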
